A study of Mus musculus with 6 samples.

Results

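The genes described here are 8 members of the Notch pathway and its repressor machinery: the receptors Notch1 and Notch2, the DNA-binding factor Rbpj, the target gene Hes1, and the repressor genes Spen, Ncor1, Tbl1xr1 and Hdac3. Members were found by gene symbol among the 19494 genes of the array, 1 row a gene. Of the 8, 7 had 1 row each, and Ncor1 had 0 rows under its symbol, so its expression was not analysed here. Spen was chosen by its difference between the fractions, which was among the largest of the series, and the other members were joined to it as its partners. The differences between the fractions are therefore given for the members as a description, with no test.

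Regulatory T cells (Tregs), stained for CD4, came from the lamina propria of tumorous colons. They were sorted from mice in which colorectal cancer had been induced with azoxymethane (AOM), a carcinogen, and dextran sulfate sodium (DSS), which damages the colon lining. All mice were of the genotype Foxp3-RFP x GPR15-GFP, so both fractions were red for Foxp3 and differed in the green reporter of GPR15, a receptor that brings T cells to the colon. The labels give no age, sex or pool size. Each fraction, GPR15-GFP+ and GPR15-GFP-, had 3 arrays, and the same replicate numbers, 1, 5 and 6, occur in both.

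Notch receptors are cut after a ligand on a neighbouring cell binds them, and the freed intracellular domain joins RBPJ on DNA and switches target genes on. Without that domain RBPJ holds its targets off through corepressors. SPEN is one of these: it binds RBPJ and, through its SPOC domain, recruits the NCoR and SMRT complexes, in which NCOR1 or its relative SMRT is joined to the histone deacetylase HDAC3 and the WD40 proteins TBL1X or TBLR1, the product of Tbl1xr1. HES1, itself a repressor, is a classical target of Notch in T cells.

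The arrays had medians of 6.49 to 6.64 log2 units. Gpr15, the gene behind the sort, differed by -0.65 ± 0.22 (SE, n = 3 a fraction), below 0 for all 3 numbers, which goes against the labels, so every direction below is that of the labels alone. T cell markers were bright, with 8 of 8 measured above the median level of all genes, and Ptprc, which encodes CD45, differed by 0.15 and Cd4 by 0.14. The arrays numbered 6 were low in Uty, which is carried on the Y chromosome, at 4.60 and 4.27 against 7.48 to 8.97 in the other 4. Uty thus parted the numbers, not the fractions. At a Benjamini-Hochberg adjusted p under 0.05, limma called 0 of 19494 genes in either direction (0%), and 1214 (6.23%) had an unadjusted p under 0.05. With array weights, which counted GPR15+ replicate 6 most (6.56) and GPR15+ replicate 1 least (0.191), limma called 2174 genes.

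Spen and Tbl1xr1 lay higher in the arrays labelled GPR15+, and Notch2 lay lower, each with no overlap between the fractions. Rbpj, Hdac3, Notch1 and Hes1 overlapped. Across all genes the GPR15+ arrays lay wholly above the GPR15- arrays for 4.12% and wholly below for 9.17%. These shares are background only, since this contrast chose the members.

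Spen encodes the large RNA-binding corepressor described above. Its values in the arrays labelled GPR15- were 4.90, 5.08 and 5.44 log2 units for the numbers 1, 5 and 6. In those labelled GPR15+ they were 5.98, 6.53 and 6.46. The lowest GPR15+ array thus lay above the highest GPR15- array, and the 3 arrays within a fraction spanned 0.55 and 0.53. The means were 6.32 ± 0.30 and 5.14 ± 0.27 (SD, n = 3), a difference of 1.18 ± 0.22 (SE) or 2.27-fold. By number the difference was 1.07, 1.45 and 1.02. Only 0.221% of all genes had a larger positive difference. The row was dim, with a mean at the 30.3 percentile of all genes. Leaving out 1 array moved the difference between 1.06 and 1.36, and removing the trend of the difference with level gave 1.31.

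Tbl1xr1 encodes TBLR1, which holds the NCoR and SMRT complexes on chromatin and helps to exchange them for coactivators. In the arrays labelled GPR15- it lay at 6.38, 6.62 and 7.31 for the numbers 1, 5 and 6, and in those labelled GPR15+ at 7.87, 8.04 and 7.63. The fractions were apart, but the GPR15- array numbered 6 came within 0.32 of its partner. The means were 7.84 ± 0.21 and 6.77 ± 0.48 (SD, n = 3), a difference of 1.07 ± 0.26 (SE) or 2.11-fold. The differences of 1.49 and 1.42 for the numbers 1 and 5 were more than 4 times that for number 6. A larger positive difference was found for 0.369% of all genes. Leaving out 1 array gave 0.88 to 1.34, and array weights gave 0.75.

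**Figure D1:**
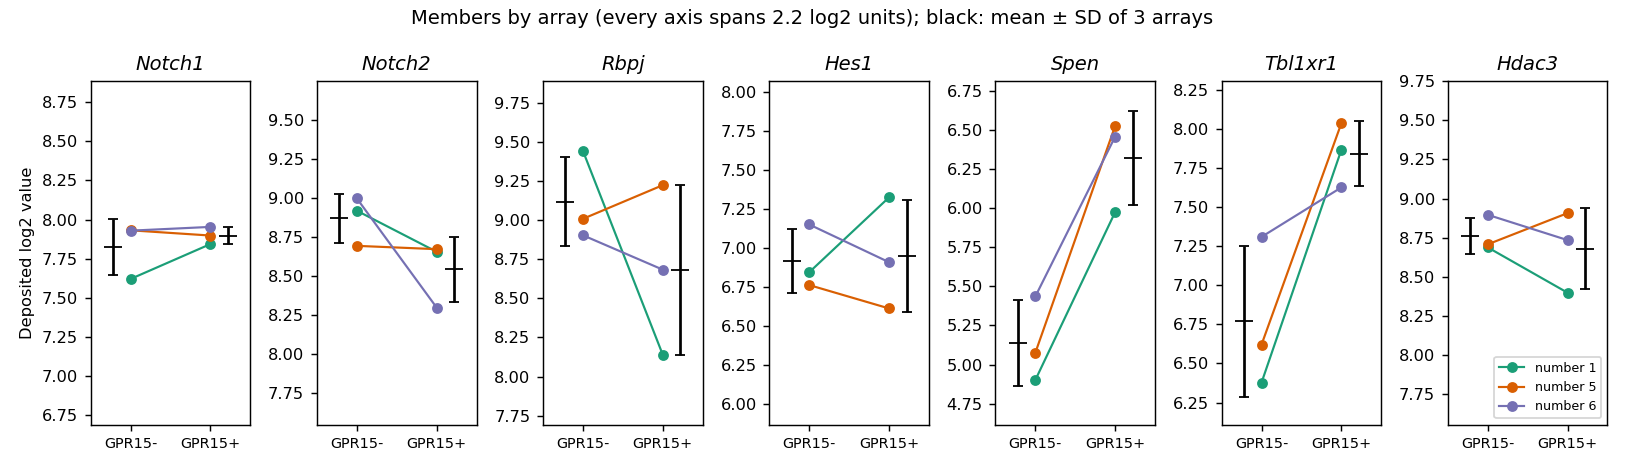
Deposited log2 value (vertical axis, a span of 2.2 log2 units in every panel) of each member on the 6 arrays; points joined by a line share a replicate number, and black bars are the mean ± SD of 3 arrays. Spen and Tbl1xr1 lie higher on every GPR15+ array, from 5.98 and 7.63 upward, while Rbpj, Hes1, Hdac3 and Notch1 cross. Levels are not to be compared between panels, since each gene has its own probes.

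Across the 6 arrays the Pearson correlation of Spen with Tbl1xr1 was 0.92, and with the fraction means taken out 0.62. These arrays share a fraction, a number and a normalization, so both values are descriptions. Because the pair lay higher together, the 250 bases before their RefSeq transcription starts (build GRCm38.p6, given 5′ to 3′ on the strand of the gene) are shown. Spen is on the minus strand at chr4:141538598-141538847 and Tbl1xr1 on the plus strand at chr3:22076402-22076651. Capitals mark matches, on either strand, to the RBPJ core GTGGGAA and to the GC box GGGCGG, the site of SP-family factors.
Spen: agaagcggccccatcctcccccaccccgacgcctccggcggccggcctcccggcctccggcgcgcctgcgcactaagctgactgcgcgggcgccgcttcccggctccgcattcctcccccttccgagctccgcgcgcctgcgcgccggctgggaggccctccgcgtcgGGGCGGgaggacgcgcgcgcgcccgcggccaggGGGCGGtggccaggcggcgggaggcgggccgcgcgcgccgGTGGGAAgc
Tbl1xr1: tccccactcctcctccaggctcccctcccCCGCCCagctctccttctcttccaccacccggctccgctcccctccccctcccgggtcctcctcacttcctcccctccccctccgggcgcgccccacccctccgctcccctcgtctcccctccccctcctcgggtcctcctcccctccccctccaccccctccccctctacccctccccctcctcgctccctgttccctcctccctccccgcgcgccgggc
The window of Spen held 1 match to the RBPJ core, on the strand of the gene, from 9 to 3 bases before the start, and 2 GC boxes. That of Tbl1xr1 held 1 GC box, on the opposite strand, and 0 matches to the RBPJ core. Among 8 start windows of the 6 members that had an entry (Ncor1 included), 1 held the RBPJ core and 5 a GC box. Of 32851 windows of the same length in the whole RefSeq table, 5.42% held the RBPJ core and 32.7% the GC box. A match is a run of letters and was not tested for binding.

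Hdac3, the deacetylase of the complex, stayed close to level. It lay at 8.69, 8.71 and 8.90 for the numbers 1, 5 and 6 in the arrays labelled GPR15- and at 8.40, 8.91 and 8.73 in those labelled GPR15+. The fractions overlapped fully, with both the lowest and the highest array labelled GPR15+. The difference was -0.08 ± 0.19 (SE), and it turned to 0.06 without GPR15+ replicate 1. With the fraction means taken out, Hdac3 followed Spen across the arrays (r = 0.92, n = 6 arrays), both being lowest in the pair numbered 1 within their fraction.

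Notch1, the main receptor of T cell development, was nearly flat. In the arrays labelled GPR15- it lay at 7.62, 7.93 and 7.93, and in those labelled GPR15+ at 7.84, 7.90 and 7.95, for the numbers 1, 5 and 6. All 6 arrays fell within 0.33 log2 units, the smallest span of the 7 members, and the difference was 0.07 ± 0.17 (SE). It was -0.03 without GPR15- replicate 1 and -0.0047 without both arrays numbered 1.

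Notch2, the receptor best known from marginal zone B cells and also expressed by T cells, lay lower. Its values were 8.92, 8.69 and 8.998 in the arrays labelled GPR15- and 8.66, 8.67 and 8.30 in those labelled GPR15+, for the numbers 1, 5 and 6. The fractions did not overlap, but the highest GPR15+ array and the lowest GPR15- array, both numbered 5, differed by only 0.02. The means were 8.54 ± 0.21 and 8.87 ± 0.16 (SD, n = 3), and the difference was -0.33 ± 0.18 (SE). By number it was -0.26, -0.02 and -0.70. The difference was -0.21 without GPR15+ replicate 6 and -0.53 with array weights.

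Rbpj had the widest spread within a fraction of the 7 members, 1.09 among the arrays labelled GPR15+. It lay at 9.44, 9.01 and 8.90 in the arrays labelled GPR15- and at 8.14, 9.22 and 8.68 in those labelled GPR15+, for the numbers 1, 5 and 6. The pair numbered 1 held the highest and the lowest value of all 6 arrays. The difference of -0.44 ± 0.29 (SE) was made up of -1.30, 0.22 and -0.22 by number. Without GPR15+ replicate 1 it was -0.16, and without both arrays numbered 1 it was -0.0023, so it rested on that pair.

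Hes1, the Notch target, did not differ in one direction. It lay at 6.84, 6.76 and 7.15 in the arrays labelled GPR15- and at 7.32, 6.61 and 6.91 in those labelled GPR15+, for the numbers 1, 5 and 6. The GPR15+ fraction held both the highest and the lowest array, and the difference was 0.03 ± 0.22 (SE). By number it was 0.48, -0.15 and -0.24, and without both arrays numbered 1 it was -0.20. Across the 6 arrays Hes1 was lowest where Rbpj was second highest and highest where Rbpj was lowest (r = -0.78, a description over arrays that share fractions and numbers).

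**Figure D2:**
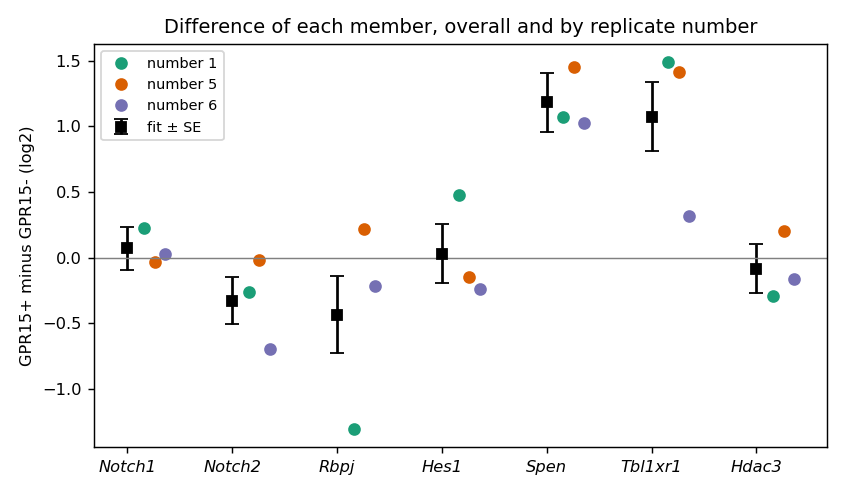
Difference GPR15+ minus GPR15- in log2 units (vertical axis) for each member; black squares are the fitted difference ± SE and coloured points the difference within each replicate number. Only Spen and Tbl1xr1 lie above 0 for all 3 numbers, and Notch2 lies below 0 for all 3.

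Differences above 0 for all 3 numbers were found in 13.4% of all genes and below 0 for all 3 in 23.6%. Differences also moved with level across the array: the median over all genes was -0.13 for genes at 5 to 6 log2 units, where Spen lies, and 0.08 at 8 to 9, where Rbpj, Notch2 and Hdac3 lie. In the bin of Spen the 5th to 95th percentiles were -0.47 and 0.39, and in that of Tbl1xr1, at 7 to 8 log2 units, -0.43 and 0.61. With this trend removed the differences of Rbpj and Notch2 were -0.53 and -0.42.

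**Figure D3:**
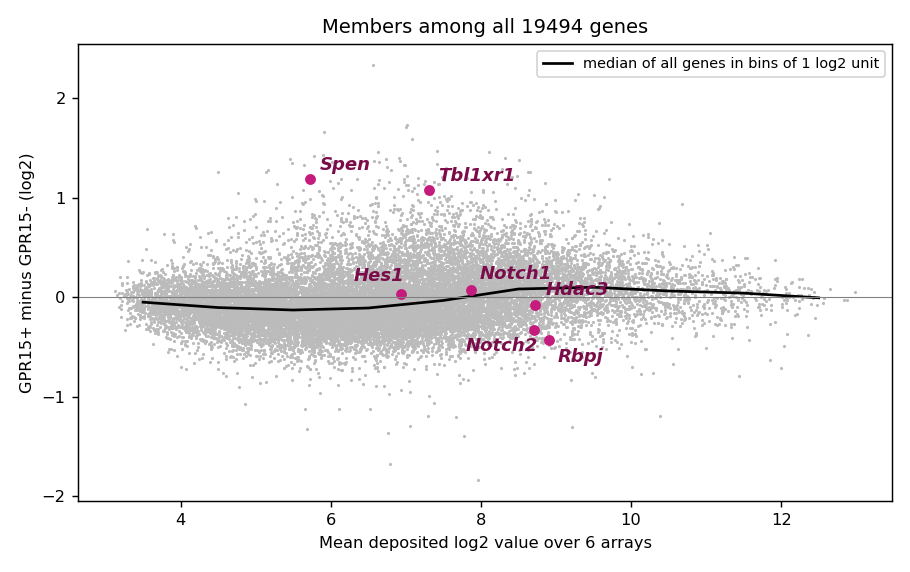
Difference GPR15+ minus GPR15- (vertical axis, log2 units) against the mean deposited log2 value over 6 arrays (horizontal axis) for all 19494 genes in grey, with the 7 measured members in pink; the black line joins medians of bins 1 log2 unit wide. Spen (1.18) and Tbl1xr1 (1.07) lie near the upper edge of the cloud at their levels, and Rbpj (-0.44) and Notch2 (-0.33) lie below the line.

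The numbers 1, 5 and 6 were compared separately, with a moderated F test in limma that held the fraction as a covariate. This test does not use the contrast that chose the members. It called 354 of 19494 genes (1.82%), the Y-linked Uty among them (adjusted p = 0.00923). Leaving out GPR15- replicate 1 raised the count to 1988, and leaving out GPR15- replicate 6 to 590. The loss of GPR15+ replicate 1 lowered it to 96, and that of GPR15+ replicate 5 to 118. None of the 7 members was called, and none had an unadjusted p under 0.05, against 19.8% of all genes. The smallest adjusted p from limma was that of Spen (0.329), whose mean over both fractions was 5.44, 5.80 and 5.95 for the numbers 1, 5 and 6. Of 109 measured genes of the wider lists below that were not members, 2 were called, against 1.82% of all genes. They were the histone deacetylase Hdac2 (adjusted p = 0.0264 in limma) and the Polycomb subunit Pcgf3 (adjusted p = 0.0304 in limma). Hdac2 lay at 5.79 and 6.15 in the arrays numbered 1 and at 6.86 to 8.79 in the other 4, and Pcgf3 at 5.72 and 5.99 against 7.13 to 8.19.

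The rest of the pathway was described by 14 lists of 127 genes, of which 115 had a row and 109 were not members. In limma 0 of these 109 were called higher and 0 lower, and 5 had an unadjusted p under 0.05 in each direction, against 2.79% of all genes higher and 3.44% lower. Their median difference was -0.03, against -0.06 for all genes, and 52 lay above 0 against 57 below. The GPR15+ arrays lay wholly above in 6 of the 109 (5.50%) and wholly below in 13 (11.9%), near the 4.12% and 9.17% of all genes.

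Of the ligands, 8 of 8 lay below 0, as did 59.2% of all genes, with a median of -0.16. Rescaling left 6 below 0 with arrays centred on their medians (median -0.09), and 5 with quantile normalization (-0.11) or the intensity trend removed (-0.10). With 1 array left out the median ran from -0.27 (GPR15+ replicate 1 omitted) to -0.06 (GPR15+ replicate 5 omitted), and it was -0.26 on omitting GPR15- replicate 5 and -0.09 on omitting GPR15- replicate 6. Jag1 had the lowest difference of all 115 genes, at -0.96 ± 0.38 (SE). It lay at 7.14, 8.24 and 7.24 in the arrays labelled GPR15- and at 6.01, 7.16 and 6.58 in those labelled GPR15+, for the numbers 1, 5 and 6. The highest GPR15+ array (7.16) just passed the lowest GPR15- array (7.14), but every number gave a lower GPR15+ value. Dlk1, a ligand-like protein, differed by -0.27 with no overlap, and Dll1 and Dll3 by -0.20 each. The row of Dll1 was dim, with a mean at the 6.53 percentile of all genes. With the intensity trend removed Dlk1, Dll1 and Dll3 differed by -0.16, -0.11 and -0.09. Jagged and Delta ligands are also made by stromal, epithelial and dendritic cells. The median marker difference was -0.23 for epithelial, -0.29 for dendritic, and -0.10 for endothelial and stromal cells. Over all genes the median was -0.06, and over those at 6 to 7 log2 units it was -0.11. Of 10 epithelial markers, 8 lay below 0, against 59.2% of all genes. Their mean level was 6.29 to 6.67 in the arrays labelled GPR15+ and 6.61 to 6.71 in those labelled GPR15-, with overlap. Dendritic cell markers lay below 0 in 6 of 6 (6.18 to 6.53 against 6.55 to 6.64), and endothelial and stromal markers in 7 of 9 (6.05 to 6.32 against 6.14 to 6.26). RMA gives no value of 0, so no marker can be called absent. Their part in the ligand values was not tested, and in sorted bulk RNA fewer such cells and less RNA per cell cannot be told apart.

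Among the receptors Notch3, which is also a Notch target, differed most, at -0.54 ± 0.16 (SE). Its values were 7.08, 7.10 and 6.88 in the arrays labelled GPR15- and 6.54, 6.37 and 6.54 in those labelled GPR15+. The fractions stood apart by more than their own spans. Notch4 differed by -0.20 with overlap.

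Among the genes for handling the receptor, Itch stood out. It encodes a ubiquitin ligase that marks Notch and other proteins for turnover and restrains T cell activation. Itch lay at 5.72, 6.14 and 6.27 in the arrays labelled GPR15- and at 6.996, 8.17 and 7.12 in those labelled GPR15+, for the numbers 1, 5 and 6. Its difference of 1.39 ± 0.33 (SE), or 2.62-fold, was the highest of the 115 genes and above that of Spen. By number it was 1.28, 2.04 and 0.85. It did not pass adjusted over all genes (limma adjusted p = 0.773). The other 15 genes of trafficking and turnover lay between -0.44 (Numbl) and 0.46 (the sorting nexin Snx17), and Dtx3 at 0.40. Of the cleavage genes, Adam10, the protease of the first ligand-induced cut, differed by 0.41, and the gamma-secretase subunit genes Aph1a, Aph1b and Aph1c by 0.22, -0.32 and -0.51. Aph1b and Aph1c are near-identical copies that an array may not tell apart. The glycosylation genes, which tune ligand binding, stayed between -0.21 (Poglut1) and 0.20 (Lfng), with Pofut1 at -0.14 and Rfng at -0.14.

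Of the coactivators that RBPJ recruits with Notch, the acetyltransferase gene Kat2b had the largest difference, 0.82 ± 0.39 (SE). It was near 0 in the pair numbered 1 (0.03) and larger for the numbers 5 and 6 (0.96 and 1.47). The acetyltransferase genes Ep300 and Crebbp differed by 0.32 and 0.09 (the latter -0.01 after quantile normalization), and the scaffold gene Maml1 by -0.11 (0.07 with GPR15+ replicate 1 left out). Of the other corepressors of RBPJ and factors linked to it, Cir1, which bridges RBPJ to deacetylases, lay higher with no overlap, at 0.43 ± 0.17 (SE). Fhl1 and Rita1, an inhibitor that moves RBPJ out of the nucleus, lay lower with no overlap, at -0.44 and -0.30. Hdac1 differed by -0.37 ± 0.57 (SE) with overlap, and turned to 0.37 with GPR15+ replicate 1 left out.

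In the NCoR and SMRT complex Tbl1xr1 stood alone. Its X-linked relative Tbl1x differed by -0.06 (0.01 with arrays centred on their medians, -0.31 to 0.22 with 1 array left out), the subunit gene Gps2 by 0.22 (-0.09 with GPR15- replicate 1 left out), and the class IIa deacetylase gene Hdac4 by 0.56 ± 0.26 (SE) with overlap. By number Gps2 differed by 0.41, 0.14 and 0.11. The median of the 7 measured genes was 0.01. In the SPOC family the median was 0.35 over 4 genes, which include Spen itself, a member chosen with this contrast known. Rbm15b and Spocd1 of that family had no row. Rbm15, a relative of Spen that guides RNA methylation, differed by 0.52 ± 0.32 (SE) with overlap, by 0.48, 0.52 and 0.56 for the 3 numbers. Dido1 differed by 0.18 and Phf3 by -0.03 (0.03 with arrays centred on their medians). Of 6 genes of the methylation complex that RBM15 joins, 5 lay above 0, with a median of 0.20, which was 0.05 on omitting GPR15+ replicate 5, 0.10 on omitting GPR15- replicate 1, 0.30 on omitting GPR15- replicate 5 and 0.41 on omitting GPR15+ replicate 1. Virma, its scaffold, differed by 0.38 with no overlap, Wtap by 0.47 (0.12 on omitting GPR15- replicate 1, 0.17 on omitting GPR15+ replicate 5), and Mettl3, the catalytic subunit gene, by 0.20. By number Wtap differed by 0.78, 0.51 and 0.12. Cbll1 differed by -0.23 and turned to 0.08 with GPR15+ replicate 1 left out. Of the genes of the Groucho family, Tle5 lay higher by 0.48 with no overlap. Tle6 and Tle2 differed by -0.37 and -0.14, and Tle1 by 0.07 (-0.13 to 0.37 with 1 array left out).

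Of the Notch target genes, 7 of 10 measured lay below 0, against 59.2% of all genes, with a median of -0.35. The median stayed between -0.23 (GPR15- replicate 1 omitted) and -0.40 under the 3 rescalings and with any 1 array left out. Notch3, Ptcra (-0.44), which encodes the pre-T-cell receptor chain, and the feedback inhibitor Nrarp (-0.26) were lower with no overlap. The difference of Nrarp lay mainly in the pair numbered 1, at -0.66 against -0.06 and -0.06 for the other numbers. Hey2 (-0.48) and Myc (-0.55) overlapped. By number Myc differed by -1.15, -0.28 and -0.24, and it was at -0.02 with GPR15+ replicate 1 left out. That omission leaves GPR15- replicate 1 without its partner. The mean of Myc over both fractions was lowest for number 1, at 8.42 against 9.74 and 9.39 for the numbers 5 and 6. Dtx1 (0.23), Hey1 (0.05, but -0.06 after quantile normalization, -0.03 with the intensity trend removed and -0.22 to 0.44 with 1 array left out) and Hes1 were the 3 genes above 0. None was called by limma in either direction, and 1 had an unadjusted p under 0.05.

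**Figure D4:**
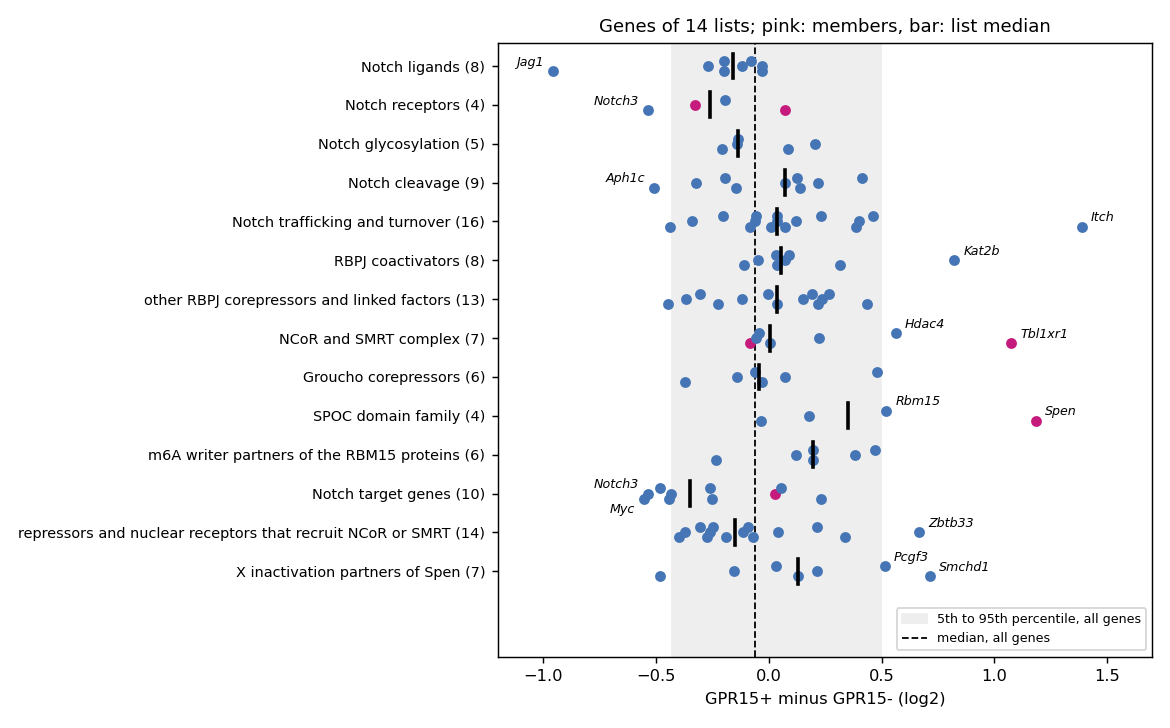
Difference GPR15+ minus GPR15- (horizontal axis, log2 units) of the measured genes of 14 lists (number in brackets); pink points are members, black bars list medians, the dashed line the median of all genes and the grey band their 5th to 95th percentile (-0.43 to 0.50). Itch, Spen and Tbl1xr1 lie farthest right and Jag1 farthest left, while the list medians stay within the band.

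Repressors and receptors that recruit NCoR or SMRT had a median of -0.15, with 10 of 14 below 0 against 59.2% of all genes. The median was -0.04 on omitting GPR15+ replicate 6, -0.29 on omitting GPR15+ replicate 1 and -0.08 with arrays centred on their medians. The retinoic acid receptor gene Rarb (-0.37) and the lipid-sensing receptor gene Ppara (-0.40) were lower with no overlap, the Kaiso gene Zbtb33 differed by 0.67 ± 0.42 (SE), and the clock repressor Nr1d2 by 0.34. SPEN also silences the X chromosome with Xist, which had no row. Of the other partners in that process Smchd1 lay higher by 0.71 ± 0.29 (SE) with no overlap, at 9.99, 9.64 and 9.51 against 9.49, 9.11 and 8.40. Pcgf3 differed by 0.51 ± 0.64 (SE), Hnrnpu by 0.21 and Pcgf5 by -0.48. By number Pcgf3 differed by 0.27, 1.06 and 0.22, Hnrnpu by -0.15, 0.58 and 0.20, and Pcgf5 by -1.18, -0.20 and -0.07. Leaving out 1 array leaves its partner of equal number unmatched, and Pcgf3 differed between the numbers. With 1 array left out, Pcgf3 ran from -0.02 (GPR15- replicate 1 omitted) to 1.17 (GPR15+ replicate 1 omitted), Hnrnpu from -0.02 (GPR15+ replicate 5 omitted) to 0.52 and Pcgf5 from -0.73 to -0.05 (GPR15+ replicate 1 omitted).

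The genes whose profile over the 6 arrays was most like that of Spen were Pitpnc1, which encodes a phosphatidylinositol transfer protein (Pearson r = 0.994), Tmem234 (0.993), the membrane glycoprotein gene Gypc (0.992), the DNA polymerase subunit gene Pold4 (0.989) and the RNA polymerase subunit gene Polr2g (0.988). Pitpnc1 matched Spen in size as well, with a difference of 1.14 ± 0.23 (SE), and the others differed by 0.36 to 0.67. In all, 63 of the 19494 genes had an r above 0.95 with Spen. Because Spen itself differed between the fractions, a high r also picks genes that differ between them. For each gene named here the GPR15+ arrays lay wholly above the GPR15- arrays, which a choice by likeness to Spen favours. The 4.12% of all genes that did so is therefore background only. The r values are descriptions and were not tested.

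**Figure D5:**
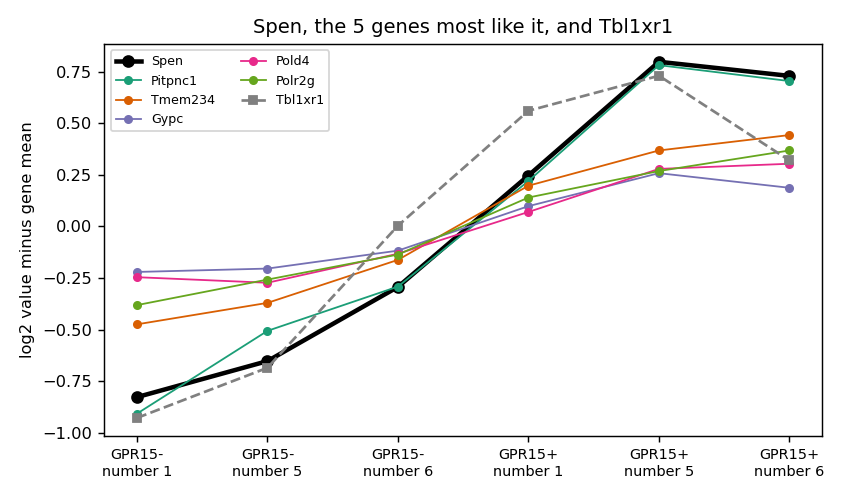
Deposited log2 value less the gene's mean over 6 arrays (vertical axis) on each array (horizontal axis) for Spen in black, the 5 genes most like it in colour and Tbl1xr1 dashed; lines only link the points of a gene, since arrays have no order. Pitpnc1 overlies Spen most closely, and Tbl1xr1 departs from it on both arrays numbered 6 and on the GPR15+ array numbered 1.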

How the data were processed

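The authors deposited log2 expression values from 1-colour Affymetrix arrays, computed with RMA (background correction, quantile normalization and summarisation per probe set), per the submitters' processing notes. Software version, build and detection calls are not given in the sources used here. Of 22142 rows, 19527 had 1 gene symbol, 0 several and 2615 none. The row with the highest mean was kept for each of 19494 genes. Differences are GPR15+ minus GPR15-, fitted with limma 3.58.1 (R 4.3.3, lmFit and eBayes), with p-values adjusted over all genes (Benjamini-Hochberg) at a threshold of 0.05. The members, lists and tests were chosen with earlier results of these data known.

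Genes named were the members, Gpr15, Ptprc, Cd4, Uty and Xist, up to 4 genes of each list by size of difference, and the 5 most like Spen. Tbl1x, Nrarp, Hey1, Dtx1 and Hdac2 were named after their values were seen. Of the other marker lists, Treg markers lay below 0 in 4 of 7 and macrophage in 7 of 7. B and plasma cell markers did so in 5 of 6, and CD8 T and NK cell in 5 of 6, against 59.2% of all genes. The mean level of B and plasma cell markers was 5.54 to 5.84 in the arrays labelled GPR15+ and 5.96 to 6.25 in those labelled GPR15-. That of CD8 T and NK cell markers was 6.08 to 6.37 against 6.44 to 6.71, so neither overlapped. The levels of Treg and macrophage markers did. The cause was not tested.

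Equal numbers were taken to pair the samples only in the differences by number and in the replicate block. The main fit held no term for the number. Each SE and p-value between the fractions is therefore unpaired unless the replicate block is named. Deviations from the fraction means correlated at 0.567, 0.381 and 0.319 for the numbers 1, 5 and 6. Unlike numbers reached 0.315 (GPR15- 6 with GPR15+ 5) and 0.213 (GPR15- 5 with GPR15+ 6). The labels do not say whether numbers mark animals or pools, so p-values measure the spread between these samples. Exact permutation of 3 against 3 arrays cannot go below p = 0.1 (2-sided). On simulated data without pairing, limma recovered 0% of genes changed by 1 log2 unit between the fractions, 83% at 2 and 95% at 3. For a change of 1 number it recovered 0%, 0% and 73%.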

Additional observations from a re-analysis of the deposited data

How the results depend on the processing

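Spen and Tbl1xr1 stayed above 0, and Rbpj and Notch2 below, under every setting run, while Hdac3, Notch1 and Hes1 changed sign under some. A filter that drops the 40% dimmest genes leaves Spen out. The count of 0 genes called between the fractions held with the replicate block (smallest adjusted p from limma 0.0750, and 2411 genes at an unadjusted p under 0.05 against 1214), with each array left out and with each rescaling. It was 2174 with array weights, whose estimation stopped before it converged. Chosen after seeing the data, gene-by-gene weights gave 2 genes and array weights with the replicate block 61. Notch2 lay at -0.53 with array weights, and Rbpj at -0.0023 without both arrays numbered 1. The replicate block changed no call. The 354 genes called between the numbers became 137 with quantile normalization, 153 with the intensity trend removed, 45 with array weights, 77 with gene-by-gene weights and between 96 (GPR15+ replicate 1 left out) and 1988 (GPR15- replicate 1 left out) with 5 arrays; no member was called in any of them. The causes were not tested. The number of arrays limits precision.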

Other observations

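Several nuclear factors of these lists were low on 1 array, GPR15+ replicate 1, the array on which Rbpj was lowest. Hdac1, a partner of Sin3 and other repressors, lay at 6.26 there and at 7.67 to 8.72 on the other 5 arrays. Pcgf5, a Polycomb subunit gene, lay at 7.80 against 8.98 to 9.36, and Myc at 7.85 against 8.99 to 9.88. Rbpj lay at 8.14 against 8.68 to 9.44. These 4 genes were picked after their values were seen, and the pattern was not tested. Other genes of the lists were highest on that array, among them Smchd1 at 9.99 and Dido1 at 10.37. The shares of list genes lowest or highest there were not counted. The SD of all log2 values was 1.63 on both arrays numbered 1 and 1.74 to 1.87 on the others.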
